A study of Homo sapiens with 15 samples.

Results

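The dolichol-linked oligosaccharide assembly enzymes described here were 10 genes, DPAGT1, ALG1, ALG2, ALG3, ALG5, ALG6, ALG8, ALG9, ALG12 and DOLK, found by their symbols among the 59608 genes of the series. All 10 were in the table and all passed the filter on low values. Their RNA was measured in MDA-MB-231, an established human triple-negative breast cancer cell line grown as 2D dishes, after 6 h with DMSO at 0.1% or with ZJ-101 at 0.5, 5, 50 or 500 nM. The compound ZJ-101 was made as a simpler version of superstolide A, a product of a marine sponge. Each of the 5 groups had 3 biological replicates, so 15 libraries were compared, and the 4 doses shared the same 3 DMSO libraries.

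Proteins entering the endoplasmic reticulum receive N-linked glycans as a preassembled block, which is built on the membrane lipid dolichol. DPAGT1, the enzyme blocked by tunicamycin, starts the block on the cytosolic face of the membrane, where ALG1 and ALG2 add mannose. After the lipid is flipped, ALG3, ALG9 and ALG12 add mannose and ALG6 and ALG8 add glucose in the lumen. DOLK makes the dolichol phosphate that carries the block, and ALG5 makes dolichol phosphate glucose, the glucose donor. Inherited defects in most of these genes cause congenital disorders of glycosylation.

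Libraries held between 12415519 and 15284762 reads on genes, and the values below are read counts divided by each library's size factor (normalized counts). The mesenchymal markers VIM, CD44, CAV1 and AXL were abundant in all libraries, the highest ESR1 value was 4.30 and of 4 markers of other cell types CD3E was at 0 in all libraries and PTPRC and PDGFRA were at most 3.53 and 3.06. The endothelial marker PECAM1, at a mean of 251, the epithelial genes EPCAM and CDH1, at means of 290.5 and 147, and ERBB2, at 1211, were nevertheless detected. Replicate 2 at 0.5 nM stood apart from its group (chi-square per degree of freedom over genes of 11.1 and 16.5 against its replicates), and results that rest on it are given with and without it. In bulk RNA of this kind, fewer cells of a type and less RNA per cell cannot be told apart.

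At 500 nM, 7 of the 10 enzymes rose and 0 fell, by limma with Benjamini-Hochberg adjustment over 13561 tested genes at 0.05, against 7.69% of all tested genes called higher. The 7 were ALG1, ALG2, ALG3, ALG5, ALG6, DPAGT1 and DOLK, with increases of the mean of 19.7% (DPAGT1) to 39.3% (ALG1). At 50 nM, 4 of 10 rose (ALG1, ALG2, ALG5 and DOLK) and 0 fell, against 2.29% of genes called higher. At 5 nM, 1 of 10 rose (DPAGT1), against 0.465%, and at 0.5 nM 0 of 10 passed, against 0.251%. At 0.5 nM an unadjusted p under 0.05 was reached by 1 enzyme upward and 1 downward, beside 827 and 1170 of 13561 tested genes. Of the enzymes, edgeR and DESeq2 also called 0 at this dose.

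**Figure D1:**
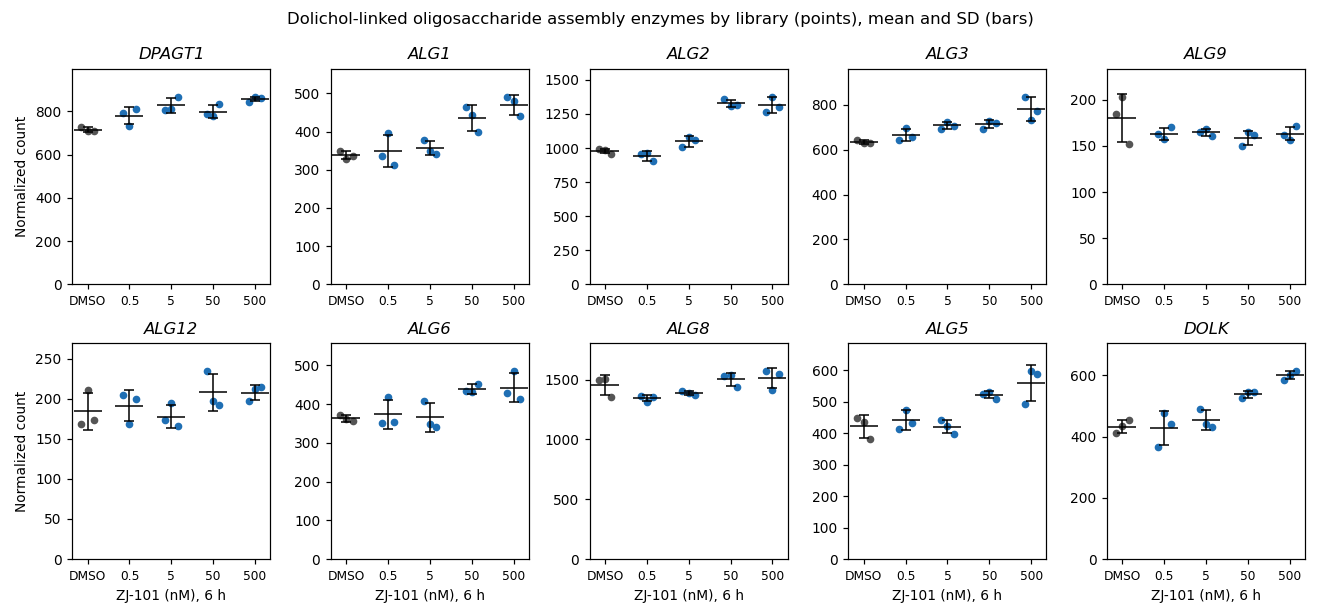
Normalized counts (linear vertical axes from 0) of each enzyme in the 3 libraries of each group, with DMSO in grey and the 4 ZJ-101 doses (nM) in blue; horizontal lines are group means and bars are SD. In ALG1, ALG2, ALG3, ALG5, ALG6, DPAGT1 and DOLK every 50 and 500 nM library lies above every DMSO library. The ALG8, ALG9 and ALG12 groups overlap DMSO at both doses.

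ALG12 holds the letters of the ER stress response element pair described below and shares its promoter with CRELD2. Its upstream sequence is shown, as is that of ALG2, which had the smallest p at 500 nM of the 10 enzymes. Both come from the RefSeq table of GRCh38.p14, read 5′ to 3′ toward the gene, and end at the base before the RefSeq start; bases that belong to an exon of the neighbouring gene were left off. The ALG2 stretch is chr9:99221943-99222063 and the ALG12 stretch chr22:49918439-49918633, both on the minus strand. Capitals mark the ER stress response element pair, and ALG2 has none.
ALG2: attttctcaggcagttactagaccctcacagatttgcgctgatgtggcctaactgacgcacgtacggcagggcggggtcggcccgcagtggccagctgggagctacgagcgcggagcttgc
ALG12: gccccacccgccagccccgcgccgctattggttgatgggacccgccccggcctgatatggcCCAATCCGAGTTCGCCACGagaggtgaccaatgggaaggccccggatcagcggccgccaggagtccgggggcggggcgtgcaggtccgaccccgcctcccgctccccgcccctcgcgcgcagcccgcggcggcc

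DPAGT1, which makes the first lipid-linked sugar on the cytosolic face, was the only 1 of the 10 enzymes with a call at 5 nM. The gene (chr11:119096025-119108331, minus strand, hg38) had normalized counts of 729, 708 and 709 in DMSO, 793, 734 and 810.2 at 0.5 nM and 808, 809 and 867 at 5 nM. It had 785, 777 and 832 at 50 nM and 844, 866 and 860.2 at 500 nM. All 12 treated libraries were above the highest DMSO library, by little in replicate 2 at 0.5 nM (734 against 729), and the replicates lay close together. The mean went from 716 ± 12 (SD, n = 3) in DMSO to 857 ± 11.4 at 500 nM, a log2 fold change of 0.26 (SE 0.052, limma adjusted p = 0.00144). At 5 nM the log2 fold change was 0.21 (limma adjusted p = 0.0388) and at 50 nM 0.16 (limma adjusted p = 0.0878). The 5 nM call was lost without any of the DMSO, 5 nM or 500 nM libraries taken singly, with adjusted p from 0.0520 to 0.168. In GENCODE 44, 26.4% of the exon bases of DPAGT1 are shared with opposite-strand genes, chiefly C2CD2L, and the strandedness of the counting is not given in the sources used here.

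The cytosolic mannosyltransferases ALG1 and ALG2 had no call at 0.5 or 5 nM and both rose at 50 and 500 nM. ALG2 (chr9:99216425-99221942, minus strand) had 994, 983 and 959 in DMSO, 956, 966 and 903 at 0.5 nM and 1006, 1081 and 1057 at 5 nM. It had 1358, 1308 and 1317 at 50 nM and 1262, 1376 and 1300.1 at 500 nM, so the 6 libraries of the higher doses were all above the highest of the other 9. Its log2 fold change was 0.44 (SE 0.048, limma adjusted p = 4.96e-06) at 50 nM and 0.42 (SE 0.048, limma adjusted p = 3.57e-06) at 500 nM. Between 50 and 500 nM the difference was -0.017 (95% confidence interval -0.12 to 0.084, limma adjusted p = 0.927), so no further rise was detected. ALG1 (chr16:5033702-5087379, plus strand), which adds the first mannose, had 349, 328 and 337 in DMSO, 336, 395 and 314 at 0.5 nM and 377, 349 and 342 at 5 nM. It had 463, 444 and 399 at 50 nM and 491, 479 and 441 at 500 nM, and only replicate 2 at 0.5 nM came near the lowest of these. The ALG1 mean rose from 338 ± 10.6 to 470.4 ± 26.4 (SD, n = 3), a log2 fold change of 0.48 (SE 0.083, limma adjusted p = 4.33e-04), the largest of the 10. Its 50 nM call was lost without DMSO replicate 2 or without 50 nM replicate 1, with limma adjusted p of 0.0544 and 0.0686. Transcripts of EEF2KMT match 25.4% of the canonical ALG1 transcript with no mismatch, and its annotation overlaps 9.24% of the ALG1 exon bases on the opposite strand. The pseudogene ALG1L3P matches 19.5% of the ALG1 transcript at 95.4% identity, with ALG1L5P, ALG1L6P, ALG1L7P and ALG1L8P much alike, FAM86EP matches 25.1% at 95.9%, and further copies match to other extents, so how reads were split between ALG1 and these genes is uncertain.

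Of the luminal mannosyltransferases, ALG3 rose at 500 nM, and ALG9 and ALG12 did not pass the test. ALG3 (chr3:184242301-184249548, minus strand), which adds the first luminal mannose, had 643, 631 and 628 in DMSO, 645, 698 and 655 at 0.5 nM and 694, 724 and 706 at 5 nM. It had 692, 728 and 719 at 50 nM and 836, 732 and 774 at 500 nM. All 12 treated libraries were above the highest DMSO library, as in DPAGT1, but only the 500 nM difference passed the test. The margin was small in replicate 1 at 0.5 nM (645 against 643). The share of all tested genes with this order was not counted. The log2 fold changes from 0.5 to 500 nM were 0.070, 0.16, 0.17 and 0.30, with limma adjusted p = 7.07e-04 at 500 nM and 0.0816 at 50 nM.

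ALG9 and ALG12, which add the later luminal mannoses, had the lowest counts of the 10 enzymes and no call at any dose. ALG9 (chr11:111782195-111871581, minus strand) had 185, 203 and 152 in DMSO, 150.4, 165 and 162 at 50 nM and 162, 157 and 171 at 500 nM. The DMSO libraries spread more widely than the treated ones, and all 12 treated libraries lay within the DMSO range except replicate 1 at 50 nM. Its log2 difference at 500 nM was -0.13 (95% confidence interval -0.34 to 0.078, limma adjusted p = 0.426). ALG12 (chr22:49900229-49918438, minus strand) had 169, 210.4 and 173 in DMSO, 234, 198 and 193 at 50 nM and 197, 212 and 215 at 500 nM. The groups overlapped, and the log2 difference at 500 nM was 0.18 (95% confidence interval -0.049 to 0.41, limma adjusted p = 0.299). Both intervals include 0, and the ALG12 interval also includes the increase of ALG3. The ALG9 interval reaches 0.078 at its upper end, below the ALG3 value of 0.30, but the difference between these genes was not tested. In the annotation 24.2% of the exon bases of ALG9 are shared with a same-strand readthrough gene and 42.3% of those of ALG12 with opposite-strand genes.

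The luminal glucosyltransferases also differed from each other in their calls. ALG6 (chr1:63367575-63438553, plus strand), which adds the first glucose, had 372, 361 and 356 in DMSO, 350.2, 417 and 353 at 0.5 nM and 408, 349 and 341 at 5 nM. It had 433, 430.1 and 453 at 50 nM and 429, 484 and 413 at 500 nM. Each of these 6 higher-dose libraries was above the DMSO libraries, though replicate 2 at 0.5 nM and replicate 1 at 5 nM were too. Its log2 fold change was 0.27 (SE 0.083, limma adjusted p = 0.0631) at 50 nM and 0.28 (SE 0.083, limma adjusted p = 0.0241) at 500 nM. This 500 nM call was lost without DMSO replicate 2 or 3 or without 500 nM replicate 2, with adjusted p of 0.0703, 0.0780 and 0.137.

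ALG8 (chr11:78095244-78139660, minus strand), which adds the next glucose, was the most abundant of the enzymes and did not pass at any dose. Its counts were 1496, 1505 and 1358 in DMSO, 1359.8, 1316 and 1356 at 0.5 nM and 1404, 1389.6 and 1372 at 5 nM. They were 1529, 1540.1 and 1437 at 50 nM and 1569.5, 1416 and 1548 at 500 nM, overlapping DMSO. The log2 difference was 0.056 at 500 nM (95% confidence interval -0.051 to 0.16, limma adjusted p = 0.52), so the interval's upper end is below the fold change of each of the 7 enzymes that rose. The differences between ALG8 and those enzymes were not tested.

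The donor enzymes DOLK and ALG5 both rose at 50 and 500 nM, though both 50 nM calls depended on single libraries. DOLK (chr9:128945530-128947603, minus strand), a gene of 1 exon, had 410.3, 433 and 456 in DMSO, 366, 477 and 441 at 0.5 nM and 491, 440.3 and 433 at 5 nM. It had 525, 545 and 545 at 50 nM and 586, 602 and 613 at 500 nM. The 3 groups DMSO, 50 nM and 500 nM did not overlap each other and stood in order of dose. The mean rose from 433 ± 22.6 to 538 ± 11.1 and 600.2 ± 13.5 (SD, n = 3). The log2 fold change was 0.31 (SE 0.080, limma adjusted p = 0.0225) at 50 nM and 0.47 (SE 0.080, limma adjusted p = 3.42e-04) at 500 nM, while the step between these doses, 0.16, did not pass (limma adjusted p = 0.422). The 50 nM call of DOLK was lost without DMSO replicate 1 or 2, or without any 50 nM replicate taken singly. In those fits the limma adjusted p ran from 0.0539 to 0.114.

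ALG5 (chr13:36949738-37000763, minus strand), the dolichol phosphate glucose synthase, had 449, 437 and 380.5 in DMSO, 415, 476 and 434 at 0.5 nM and 441, 422 and 399 at 5 nM. It had 525, 532 and 511 at 50 nM and 492, 597 and 588 at 500 nM. These libraries were all above the highest DMSO library, and the 500 nM replicates spread more widely than the 50 nM replicates. The log2 fold change was 0.31 (SE 0.081, limma adjusted p = 0.026) at 50 nM and 0.40 (SE 0.081, limma adjusted p = 0.00155) at 500 nM. The 50 nM call of ALG5 was lost without DMSO replicate 2 or 3, or without any 50 nM replicate taken singly. In those fits the limma adjusted p ran from 0.0502 to 0.157.

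Across the 10 enzymes the median log2 fold change was 0.037 at 0.5 nM, 0.038 at 5 nM, 0.22 at 50 nM and 0.29 at 500 nM, where the median over all tested genes was 0.0027. Fold changes were above 0 in 9 of 10 enzymes at 50 nM and at 500 nM, against 49.2% and 50.6% of all tested genes, with ALG9 the exception at both. In 7 of 10 enzymes every 500 nM library was above every DMSO library, against 18.9% of genes, and the same count held at 50 nM against 11.6%. Taken library by library, the median log2 ratio of the enzymes to their DMSO means was 0.27, 0.22 and 0.23 in the 50 nM libraries and 0.24, 0.35 and 0.28 in the 500 nM libraries. In the 0.5 nM libraries it was -0.027, 0.087 and -0.0068, and in the 5 nM libraries 0.099, 0.037 and -0.039. So each library of the higher doses was above each of the lower doses by this measure, and no 1 replicate carried the median.

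A slope on the rank of dose, with DMSO lowest, passed the test for the same 7 enzymes that rose at 500 nM, against 8.23% of genes called with a positive slope. The slope per step of rank was 0.13 log2 (SE 0.018, limma adjusted p = 1.59e-05) for ALG2 and 0.055 (SE 0.013, limma adjusted p = 0.00412) for DPAGT1, the lowest of the 7. Most of the increase of ALG2 fell between 5 and 50 nM, where the log2 difference was 0.34 (limma adjusted p = 1.93e-04). ALG5 also passed in this step, at 0.31 (limma adjusted p = 0.0298), making 2 of 10 enzymes against 2.62% of genes called higher. ALG1 at 0.29, ALG6 at 0.27 and DOLK at 0.25 had limma adjusted p of 0.0534, 0.0798 and 0.0972, and all 3 passed when replicate 2 at 0.5 nM was left out. The ALG5 call was lost without 5 nM replicate 2 or 3, or without any 50 nM replicate taken singly, which left 1 or 2 of 10 enzymes passing. With 1 library left out, 424 to 1129 of all tested genes passed in this step in either direction. ALG3 and DPAGT1, by contrast, had differences of 0.010 and -0.053 in this step. From 50 to 500 nM 0 of 10 enzymes passed, against 0.479% of genes called higher, and 0 were called by edgeR or DESeq2. An unadjusted p under 0.05 was reached upward by 1 enzyme (ALG3, 0.13), beside 759 of 13561 tested genes.

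The count at 50 nM depended on single libraries more than that at 500 nM. Without replicate 2 at 0.5 nM, 7 of 10 enzymes passed at 50 nM, ALG3, ALG6 and DPAGT1 in addition to the 4. Without DMSO replicate 2, or 50 nM replicate 1, 1 of 10 passed, and without 50 nM replicate 2 or 3, 2 of 10 passed. At 500 nM the count was 6 or 7 in every such fit. All tested genes also varied: with 1 library left out, 560 to 1276 passed at 50 nM and 1795 to 3097 at 500 nM, in either direction.

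Over the 15 libraries, the 45 pairs of enzymes had a median Pearson r of 0.53 (-0.42 to 0.88), with 38 pairs above 0, a description in which the pairs share dose and library. After the group means were taken out, the median was 0.016 and 23 of 45 pairs were above 0. The genes whose counts ran most like ALG2 over the 15 libraries were SLC3A2 (r = 0.98), a subunit of amino acid transporters, the heat shock chaperone HSPA8 (0.96), the receptor tyrosine kinase EPHA2 (0.96), EVI2A (0.96) and DNAJA1 (0.96), a co-chaperone of the HSP70 family. At 500 nM these rose by log2 fold changes of 2.08, 1.24, 0.59, 0.62 and 0.71, all larger than that of ALG2. They were picked over the same libraries with the doses included, so a rise at 500 nM was built into the choice. Their r with group means taken out was not computed.

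In DMSO, counts per kilobase of the canonical transcript ordered the enzymes from ALG8 at 888 to ALG9 at 29.2. Between them were ALG3 at 409, DPAGT1 at 374, ALG2 at 348, ALG5 at 346, DOLK at 209, ALG6 at 109, ALG1 at 86.6 and ALG12 at 34.6 normalized counts per kilobase. Of neighbours in this order, ALG2 (341 to 354) and ALG5 (312 to 368) overlapped over the 3 libraries, as did ALG12 (31.7 to 39.5) and ALG9 (24.7 to 33.0), and the other neighbours did not. The enzymes that rose and those without a call did not separate by this level, since ALG8 stood highest and ALG12 and ALG9 lowest.

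**Figure D2:**
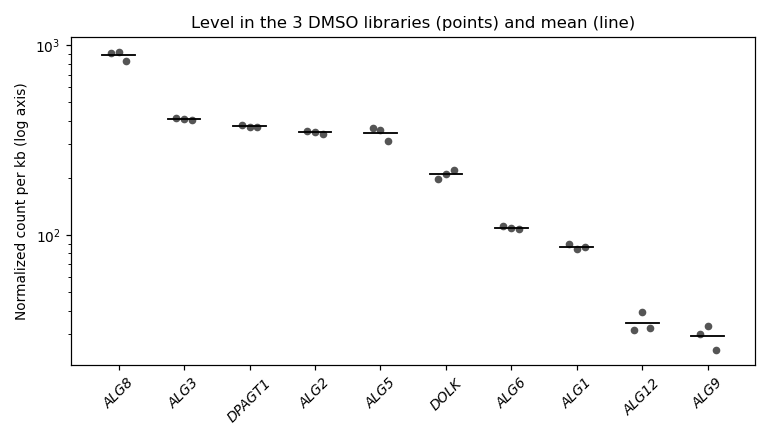
Normalized counts per kilobase of canonical transcript (log axis) in the 3 DMSO libraries (points) with their mean (line), by enzyme in descending order. ALG8 is highest at 888 and ALG9 lowest at 29.2.

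The other genes that build or supply the lipid-linked block covered here were 13 partners, and at 500 nM 1 of them passed the same test as higher and 0 as lower, a share near the 7.69% of all genes called higher. DOLPP1, a phosphatase that recycles the dolichol carrier, went from 529, 497 and 498 in DMSO to 684, 675 and 725 at 500 nM, a log2 fold change of 0.45 (SE 0.060, limma adjusted p = 2.14e-05), and it also rose at 50 nM (0.37). Of the 13, 12 had fold changes above 0 at 500 nM, against 50.6% of all genes, with a median of 0.088. ALG11, which adds the last cytosolic mannoses, had 0.45 (limma adjusted p = 0.0724), and ALG10, which adds the last glucose, had 0.36 (limma adjusted p = 0.157). Without replicate 2 at 0.5 nM, 3 of 13 passed, since ALG11 (limma adjusted p = 0.0357) and DHDDS (0.0385) were added. Their fold changes were the same in this fit, 0.45 and 0.23. Among all tested genes, 1795 to 3097 passed at 500 nM in either direction with single libraries left out. ALG11 also passed without 5 nM replicate 2 or 3, and DHDDS without 50 nM replicate 2 or 3, which gave 2 of 13. ALG11, ALG10 and DOLPP1 passed the slope test on dose rank, 3 of 13 against 8.23% of genes called with a positive slope. By slope, edgeR called 3 of the 13 higher and DESeq2 called 4. In the annotation ALG11 shares 35.2% of its exon bases with UTP14C on the same strand. The cis-prenyltransferase subunits had 0.23 (DHDDS, limma adjusted p = 0.0646) and 0.014 (NUS1), and the synthase of dolichol phosphate mannose had 0.042, 0.083 and -0.037 for DPM1, DPM2 and DPM3. ALG13 and ALG14, which together follow DPAGT1, had 0.010 and 0.088.

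**Figure D3:**
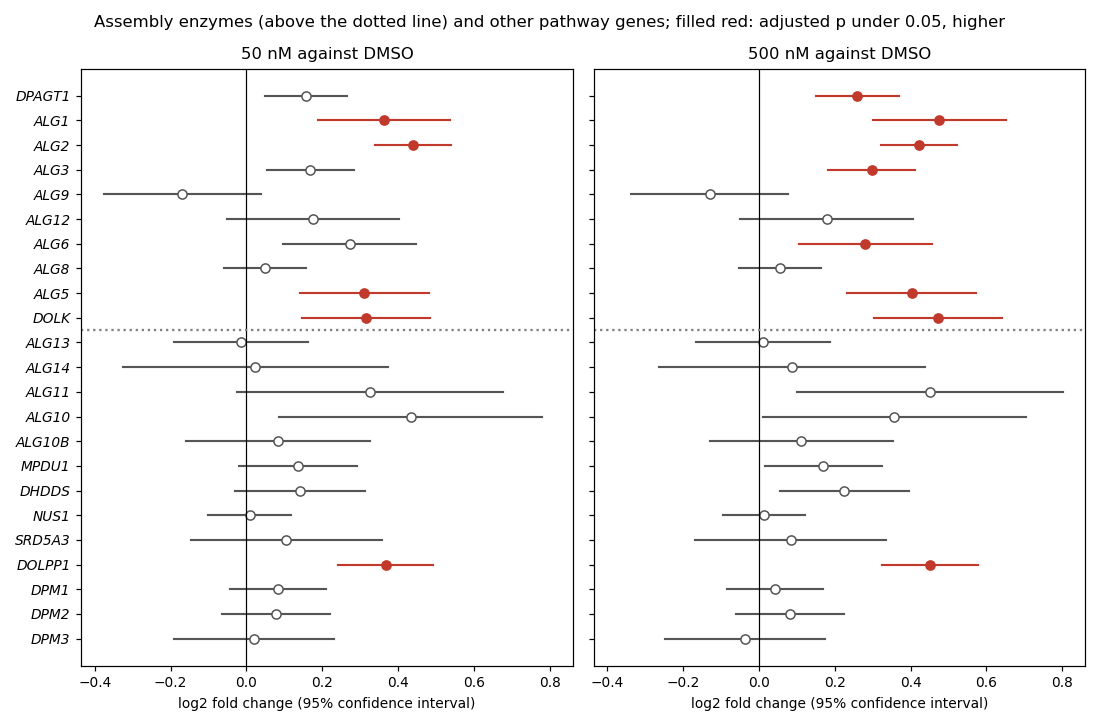
Log2 fold changes against DMSO (points) with 95% confidence intervals (bars) at 50 nM (left) and 500 nM (right) for the 10 enzymes above the dotted line and 13 partner genes below it; filled red points are genes called higher at an adjusted p of 0.05. At 500 nM 7 enzymes and 1 partner gene, DOLPP1, are filled.

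The steps before and after assembly had other counts. Among 11 genes listed under sugar nucleotide supply, 0 rose and 3 fell at 500 nM, with a median log2 fold change of -0.093, beside 10.1% of all tested genes called lower. The 3 were GFPT1, a rate-limiting hexosamine pathway enzyme (-0.43), GMPPA (-0.29) and UGP2 (-0.20), with limma adjusted p of 7.93e-06, 0.00689 and 0.0198. The related genes GFPT2 and GMPPB had no call, and their means at 500 nM differed from DMSO by -6.33% and 4.17%. In the annotation GMPPB shares 42.6% of its exon bases with AMIGO3 on the same strand. GFPT2 was more abundant than GFPT1, with DMSO means of 2596 and 1296. Among 12 genes of the oligosaccharyltransferase, which transfers the finished block to proteins, 0 rose and 5 fell, with a median of -0.11. RPN1, a subunit of it, went from 4259, 4207 and 4137 in DMSO to 3439, 3456 and 3452 (-0.28, limma adjusted p = 1.48e-04), and the others that fell were STT3B, OSTC, RPN2 and MAGT1, by -0.18, -0.17, -0.15 and -0.14. The early trimming list held 9 genes for early processing of the transferred glycan, among them UGGT1 and UGGT2, which add glucose back and do not trim. Of these 9 genes, 8 passed the filter on low values, 0 of the 8 rose and 6 fell, with a median of -0.32.

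The genes of the trimming list that fell were MOGS, MAN1A1, MAN1B1, UGGT2, MAN1A2 and GANAB. MOGS, the glucosidase that removes the outermost glucose, went from 1505, 1352 and 1301 in DMSO to 714, 671 and 669 at 500 nM (-1.01, limma adjusted p = 2.61e-10), the largest fall of these lists. MAN1A1, a Golgi mannosidase, went from 776, 822 and 786 to 488, 479 and 459 (-0.74, limma adjusted p = 2.92e-08). In these lists the 7 assembly enzymes that passed were higher and all 14 genes that passed in the 3 other lists were lower, and the difference between lists was not tested. This division depended on single libraries. UAP1 of the sugar nucleotide list passed as higher without replicate 2 at 0.5 nM (0.13, limma adjusted p = 0.0355). In that fit PGM3 (limma adjusted p = 0.0220) and UGGT1 (0.0301) were added to the genes called lower. KRTCAP2 of the oligosaccharyltransferase passed as higher without 500 nM replicate 1 (1.02, limma adjusted p = 0.0462). Its counts were near the filter of 10, at 8.65, 12.1 and 16.2 in DMSO and 13.2, 34.4 and 18.5 at 500 nM. The calls of OSTC, MAGT1, GANAB and MAN1A2 were lost with no filter on low values, with limma adjusted p from 0.0620 to 0.0938, and these and the calls of STT3B and UGP2 were also lost without some single libraries. The number of oligosaccharyltransferase genes called lower went from 5 to 2 without DMSO replicate 3 and to 3 without DMSO replicate 1 or 2 or 500 nM replicate 3. With 1 library left out, the genes of the trimming list called lower numbered 4 to 7 and the sugar nucleotide genes 2 to 4.

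**Figure D4:**
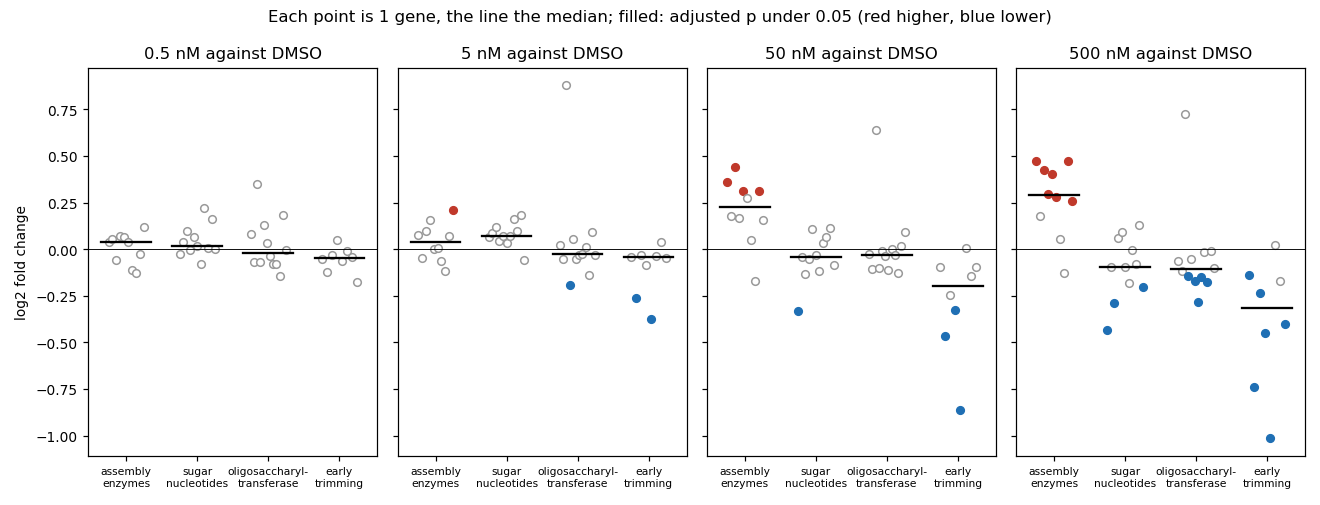
Log2 fold change against DMSO of each tested gene (points) in 4 lists at each dose, with the list median as a line; filled points passed at an adjusted p of 0.05, red higher and blue lower. At 500 nM the assembly enzymes have a median of 0.29, the sugar nucleotide genes -0.093, the oligosaccharyltransferase -0.11 and the trimming list -0.32.

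The ALG12 stretch shown above carries the ER stress response element pair, through which the unfolded protein response, the programme that raises chaperones of the endoplasmic reticulum under stress, is known to act on its target genes. The pair is CCAAT and CCACG with 9 bases between them, searched on both strands from 250 bases before to 50 after each RefSeq start. It was in 27 of 35116 such windows (0.0769%), and among the 10 enzymes, which had 16 windows, only in that of ALG12, beginning 134 bases before its start. The same bases lie in the promoter of CRELD2, the gene that runs the other way from this promoter, and another copy lies in that of HSPA5, the main chaperone of the endoplasmic reticulum.

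Of these 3 genes, HSPA5 and CRELD2 passed the test as lower at 500 nM and ALG12 did not pass. HSPA5 fell from 14375, 14267 and 13787 in DMSO to 5384, 5282 and 5651 (-1.38, limma adjusted p = 1.50e-13). CRELD2, which was chosen after its values were seen, fell from 382, 366 and 399.7 to 270.1, 261 and 247 (-0.56, limma adjusted p = 8.17e-06) and at 50 nM had -0.27 (limma adjusted p = 0.0217), where DESeq2 did not call it. ALG12 had 0.18, with an interval from -0.049, so a fall as large as that of CRELD2 lies outside it. The difference between the genes was not tested, and 3.15% of the exon bases of ALG12 overlap CRELD2 on the opposite strand. HERPUD1, another gene of this response, had no match to the pair in its window and fell by 0.66 log2 at 500 nM (limma adjusted p = 1.10e-06).

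The other motifs searched in the same windows were the unfolded protein response element TGACGTGG, in 0.729% of windows, and the cAMP response element TGACGTCA, in 1.85%, both in 0 of the 10 enzymes. The heat shock dyad GAANNTTC was in 6.77% of windows and in 2 of the 16 windows of the 10 enzymes, both of ALG3. The same GAAGGTTC begins 22 bases before 1 of its 3 RefSeq starts and 31 bases before another. The letters CGTGG of the first are CCACG read on the other strand, and the first and the cAMP element share TGACGT, so these searches overlap in part. A match is a string of letters and no measure of binding, and the 7 enzymes that rose had no motif of the 4 in common.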

How the data were processed

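The deposited values were made by the authors from poly-A RNA, as far as the labels and the study's methods say: paired-end reads were aligned to hg38 with HISAT2, counted per gene with htseq-count and divided by DESeq2 size factors. The deposited signal is therefore a normalized count, and dividing by the smallest step of each library gave whole reads for all values within 0.001. Tool versions, the GENCODE release and strandedness are not given in the sources used here. 1 line without a gene was left out. Size factors recovered from the deposited values were 0.916 to 1.13, and mitochondrial genes held 0.889 to 2.06% of reads.

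The 13561 of 59608 genes whose mean reached 10 normalized counts were tested with limma 3.58.1 (R 4.3.3) on log2(normalized count + 1), with the 5 groups in 1 fit, a mean-variance trend and Benjamini-Hochberg adjustment over all tested genes at 0.05. Fold changes on this scale are understated for low genes. A separate fit took the slope on the rank of dose. The dose comparisons against DMSO share their controls. The recovered reads were also tested with edgeR 4.0.16 (quasi-likelihood) and DESeq2 1.42.0, and other pseudocounts, filters, TMM scaling, a replicate block and single left-out libraries were tried. The fits were tested on simulated data. Per the series' design text the replicates were triplicate dishes, called biological replicates in the labels, and no pair of libraries agreed within sampling noise (chi-square per degree of freedom 2.04 to 16.5).

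Positions, transcript lengths and overlaps came from GENCODE 44 on GRCh38, similar transcripts from minimap2 2.31-r1302, and promoter sequences from RefSeq (GRCh38.p14). All 10 enzymes matched by symbol. The enzymes and gene lists were chosen with earlier results of these data known. Apart from the 10 enzymes, genes were named for membership of these lists when they passed the test, for their place in the pathway, for likeness to the enzyme with the smallest p, or, for CRELD2, after its values were seen. No p was adjusted over a list alone and no gene set was tested. 1 gene of the pathway list is not reported here.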

Additional observations from a re-analysis of the deposited data

How the results depend on the processing

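The directions of all enzyme fold changes that passed held under every alternative: other pseudocounts (0.5 and 5), no filter or a mean of at least 50, TMM scaling, edgeR, DESeq2, the replicate block and each left-out library. TMM moved the median over all genes by at most 0.0095 log2. At 500 nM 227 of 230 recomputed values kept their side of the threshold and 3, all for ALG6, did not; at 50 nM 214 of 230 did; for the slope 230 of 230 did. With no filter on low values the count at 5 nM went from 1 enzyme to 0, because DPAGT1 had an adjusted p of 0.0865 among more tested genes.

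With 1 library left out, the number of enzymes passing ranged from 0 to 0 at 0.5 nM, 0 to 1 at 5 nM, 1 to 7 at 50 nM, 6 to 7 at 500 nM, 7 to 7 for the slope, 1 to 5 from 5 to 50 nM and 0 to 0 from 50 to 500 nM. For all tested genes the ranges were 19 to 391, 113 to 623, 560 to 1276, 1795 to 3097, 1783 to 2688, 424 to 1129 and 139 to 630 in the same order. The cause of the losses at 50 nM was not tested. Leaving out replicate 2 at 0.5 nM raised the count at 50 nM to 7 enzymes and that of all genes to 1276.

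The replicate numbers are shared between groups, but same-numbered libraries did not deviate together: 0 of 30 correlations were over 0.1 (-0.085 to 0.096), and 7 of 15 libraries were closest to their own number. With the replicate block 7 enzymes passed at 500 nM, 4 at 50 nM and 3 from 5 to 50 nM, where ALG1 had an adjusted p of 0.0291, and ALG11 passed at 500 nM (0.0391). With 3 replicates, the 95% confidence interval of ALG12 at 500 nM ran from -0.049 to 0.41.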
